A study of Mus musculus with 23 samples.

Results

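The genes described here are 48 genes of mitosis and the spindle checkpoint, the set of kinases, motors, kinetochore proteins and condensins that a cell uses to separate its chromosomes. They were chosen by name: a member is a gene whose symbol stands alone on a probe set of the array, and for a gene with several of them the brightest on average was taken. By that rule 47 of the 48 were measured, among 19937 genes in all; Ccnb1 was not analysed here, and Sgol1 is listed under its newer symbol Sgo1. Top2a alone had 2 probe sets, with mean log2 levels of 9.33 and 5.61.

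Entry into mitosis depends on cyclin-dependent kinase 1 with its cyclins, and is promoted by the phosphatase Cdc25c and by the kinases Plk1 and Aurka. The spindle checkpoint, made of Bub1, Bub1b, Bub3, Mad2l1 and Ttk, holds back Cdc20 and the anaphase-promoting complex until every kinetochore is attached to the spindle. Most of these genes are transcribed late in the cell cycle, and their messenger levels in bulk RNA are widely read as a measure of dividing cells; haematopoietic progenitors divide often, while many stem cells rest.

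The study measured RNA of mouse bone marrow progenitors on 23 Affymetrix arrays, with the transcription factor C/EBPα present or deleted and with or without the leukaemia fusion gene MLL-AF9. All donors were C/EBPα f/f mice given poly I:C 3 times; knockout donors carried Mx1-Cre, an interferon-induced recombinase that acts in many tissues, and control donors did not. The 11 arrays without MLL-AF9 came from marrow taken 5 days after the injections: 4 arrays of control common myeloid progenitors (CMPs), 3 of control granulocyte-macrophage progenitors (GMPs) and 4 of knockout CMPs. The other 12 arrays came from irradiated congenic recipients of cells that had been cultured with stem cell factor, thrombopoietin and IL-3, transduced with an MLL-AF9 retrovirus that also encodes GFP, and given together with congenic support marrow. They hold GFP+ KSLs (the c-kit+Sca-1+Lin- fraction that holds the stem cells, 2 arrays) and GFP+ CMPs (3 arrays) of knockout recipients without leukaemia. They also hold leukaemic GMPs (L-GMPs) of control origin from primary (2) and secondary (2) recipients. The sample titles do not say from which primary leukaemia the secondary ones descend, so these arrays may not all be independent leukaemias. The last 3 arrays are L-GMPs of 1 knockout leukaemia, which arose in a recipient given vectors for IL-3 and GM-CSF: 1 array of the primary animal and 2 of secondary recipients, so they are not independent leukaemias. KSLs and CMPs of the non-leukaemic knockout recipients share animals, since mice 9 and 11 gave both fractions and mouse 4 only CMPs.

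Values are log2 expression levels, so a difference of 1 is a doubling of signal. Cebpa itself read 4.33 to 5.55 on the 12 knockout arrays and 7.19 to 7.96 on the 11 control arrays, with no overlap. The 10 granulocyte-monocyte marker genes, Cebpa itself among them, averaged 10.12 to 10.29 in control GMPs. They averaged 9.14 to 9.67 in control CMPs and 9.00 to 9.88 in control L-GMPs. In the knockout leukaemia they averaged 9.36 on the primary array and 9.28 to 9.35 on the secondary arrays. They averaged only 6.43 to 7.44 in knockout CMPs and 5.26 to 6.04 in the non-leukaemic MLL-AF9 knockout cells. One MLL-AF9 knockout CMP array, from mouse 4, stood apart in its 5 megakaryocyte markers, which averaged 9.48 against at most 7.91 on any array of the other groups. Differences between transplanted and untransplanted groups, and between array batches if there were any, cannot be told apart, because the labels give no batch. Most labels do not say which arrays come from separate animals, so p-values measure the spread between arrays, which may be partly technical.

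Promoters of cell-cycle genes often carry the CCAAT box, bound by NF-Y, and the cell cycle genes homology region (CHR), through which the DREAM and MuvB complexes act. Because these members moved together across the arrays, their RefSeq promoters (GRCm38.p6, 250 bases before to 50 after the start of transcription) were searched on both strands for 2 motifs. The first was CCAAT, which reads ATTGG on the opposite strand. The second was the CHR, spelled TTTGAA, which appears in the printed strand as TTCAAA when it lies on the opposite one, or in a second accepted spelling as the palindrome TTCGAA. Promoters were found for 37 of the 47 genes, 40 promoters in all. CCAAT was present in 33 of them (82.5%), against 37.4% of all 32851 promoters, and 2 or more copies in 52.5% against 11.7%. A CHR match was present in 34 (85.0%) against 19.2%. Both motifs together occurred in 31 (77.5%), against 7.52% of all promoters and 6.56% of the 19176 promoters of measured genes. The 150 bases before the start are printed 5′ to 3′ for 5 members that hold both motifs close to the start, and for Nuf2, which has neither in the whole window although its level changed more than that of any other member between control GMPs and control L-GMPs. Capitals mark CCAAT and CHR matches on either strand.
Cdk1, chr10:69352913-69353062, minus strand: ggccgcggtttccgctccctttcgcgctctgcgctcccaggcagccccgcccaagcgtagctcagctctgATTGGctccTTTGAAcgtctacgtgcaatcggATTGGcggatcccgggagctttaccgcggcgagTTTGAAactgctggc
Cdc20, chr4:118437344-118437493, minus strand: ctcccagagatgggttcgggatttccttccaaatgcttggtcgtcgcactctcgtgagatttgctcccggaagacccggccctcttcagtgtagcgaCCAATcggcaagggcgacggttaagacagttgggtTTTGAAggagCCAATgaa
Ube2c, chr2:164769779-164769928, plus strand: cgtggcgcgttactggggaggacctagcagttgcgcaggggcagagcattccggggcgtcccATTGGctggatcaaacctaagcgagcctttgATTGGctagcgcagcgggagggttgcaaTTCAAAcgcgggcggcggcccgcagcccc
Kif11, chr19:37376232-37376381, plus strand: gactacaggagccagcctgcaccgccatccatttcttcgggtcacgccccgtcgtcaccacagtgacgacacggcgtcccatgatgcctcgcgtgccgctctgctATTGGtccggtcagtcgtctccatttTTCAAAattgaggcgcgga
Top2a, chr11:99024190-99024339, minus strand: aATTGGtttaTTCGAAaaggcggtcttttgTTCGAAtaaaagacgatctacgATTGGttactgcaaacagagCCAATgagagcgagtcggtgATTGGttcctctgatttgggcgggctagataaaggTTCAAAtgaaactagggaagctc
Nuf2, chr1:169531465-169531614, minus strand: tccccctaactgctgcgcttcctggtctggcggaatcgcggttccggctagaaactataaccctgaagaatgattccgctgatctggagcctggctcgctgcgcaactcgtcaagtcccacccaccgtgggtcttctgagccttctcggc
In Cdk1, the kinase of mitotic entry, CHR matches began 71 and 15 bases before the start. In Cdc20, the activator of the anaphase-promoting complex, the match began 18 bases before it, in Ube2c, the ubiquitin-conjugating enzyme of that complex, 29 bases, and in the spindle motor Kif11 19 bases. Top2a, the topoisomerase that untangles sister chromatids, held 4 CCAAT and 3 CHR matches in the printed stretch. A match is a string of letters and was not tested as a binding site.

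The mitosis genes were highest in normal progenitors, and the lowest group mean was that of MLL-AF9 knockout KSLs, where 1 of the 2 arrays stood apart. Averaged over the 47 members, each set to its own mean over the arrays, control GMP arrays lay 0.46 to 0.60 above 0 and control CMP arrays 0.31 to 0.50 above it. Knockout CMPs lay at 0.02, 0.28, 0.35 and 0.31, the first of them apart from the rest. All 4 control L-GMP arrays lay between -0.29 and -0.24, the MLL-AF9 knockout CMPs between -0.44 and -0.32, and the 2 KSL arrays at -1.0 and -0.42. Within groups the pooled SD of this average was 0.15. The knockout leukaemia split: its primary array read 0.33, among the normal progenitors, while its secondary arrays read -0.31 and -0.57. In bulk samples, fewer cells in mitosis and less RNA of these genes per cell cannot be told apart.

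**Figure D1:**
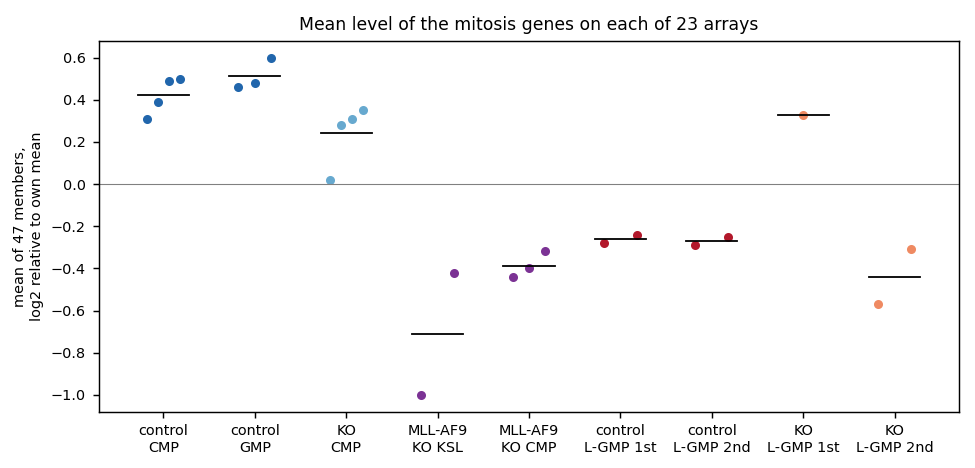
Mean log2 level of the 47 mitosis genes on each of the 23 arrays, each gene relative to its own mean over all arrays. Points are arrays and bars are group means; KO is the C/EBPα knockout, and 1st and 2nd are primary and secondary recipients. Normal progenitors lie between 0.02 and 0.60, and all MLL-AF9 arrays but the primary knockout leukaemia at 0.33 lie below 0.

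Over the 9 groups 45 of the 47 members varied beyond the spread between arrays (limma moderated F test, adjusted p below 0.05), where 45.2% of all genes did. The median range of group means was 1.35 for the members and 0.69 for all genes. Control GMPs held the highest group mean for 32 members and the primary knockout L-GMP array for 8, while MLL-AF9 knockout KSLs held the lowest for 30. For 14 members all 3 normal group means lay above all 6 MLL-AF9 group means, as they did for 8.14% of all genes. Without the primary knockout L-GMP array the same order held for 40 members, against 9.43% of all genes.

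**Figure D2:**
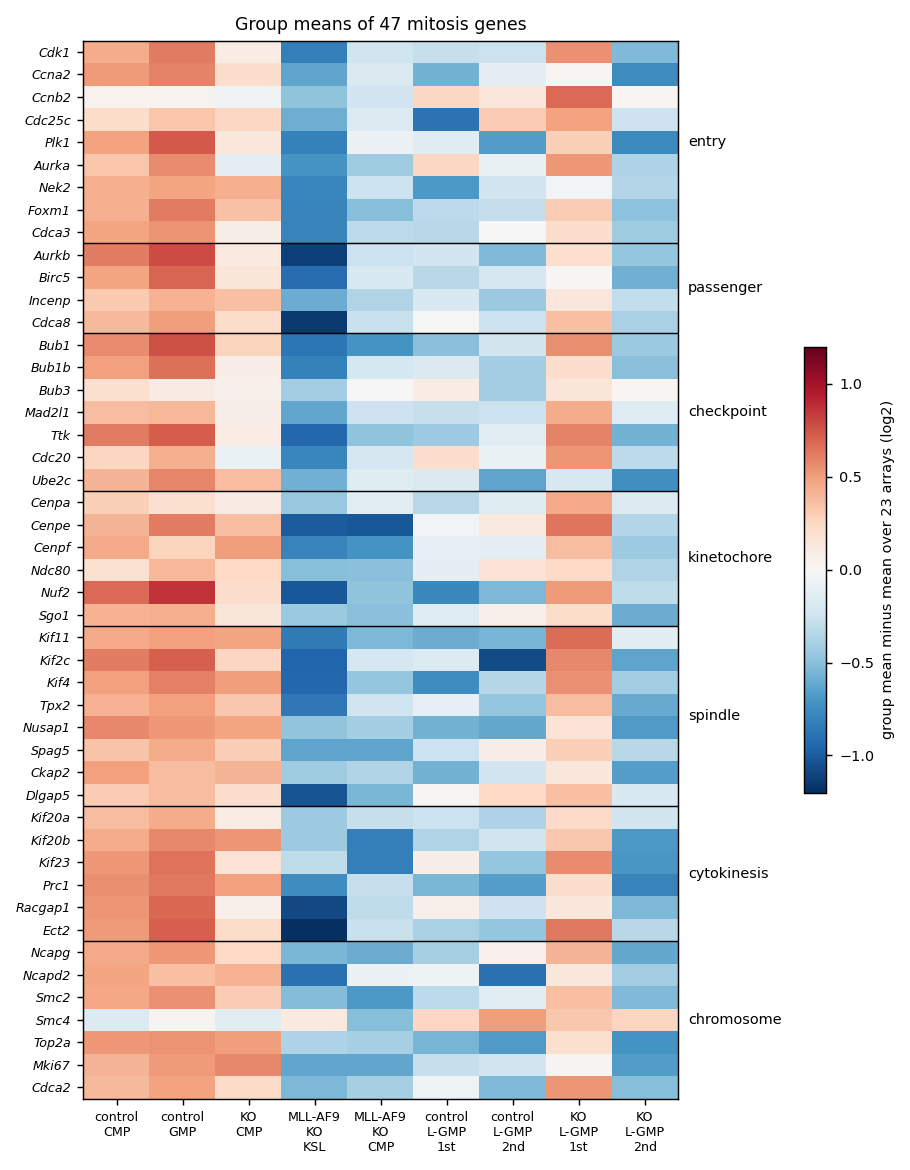
Group means of the 47 members by role, as log2 difference from each gene's mean over 23 arrays; red is above and blue below. The 3 columns of normal progenitors are red for nearly all members, the MLL-AF9 columns mostly blue, and the primary knockout L-GMP column red; Smc4 and Ccnb2 depart from the pattern.

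The 6 members with the widest ranges were Ect2, Nuf2, Aurkb, Kif2c, Racgap1 and Ttk. Ect2, the exchange factor that activates RhoA for cytokinesis, ranged over 1.96 between control GMPs (7.79, 7.82 and 7.84) and MLL-AF9 knockout KSLs, where the 2 arrays read 4.73 and 6.99. Its range therefore rests on the KSL array at 4.73, the lowest value of any member on any array. Nuf2, a subunit of the microtubule-binding Ndc80 complex, ranged over 1.90 and Aurkb, the kinase of the chromosomal passenger complex, over 1.90. Kif2c, a kinesin that shortens microtubules at kinetochores, ranged over 1.79, Racgap1, a subunit of the central spindle complex centralspindlin, over 1.77, and Ttk, the kinase that starts checkpoint signalling, over 1.67.

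Racgap1 read 7.61, 7.64, 7.84 and 7.59 in control CMPs, 8.22, 7.67 and 7.60 in control GMPs and 6.94, 7.18, 7.32 and 7.35 in knockout CMPs. In the MLL-AF9 groups it read 5.89 and 6.23 in KSLs, 6.99, 6.40 and 7.12 in CMPs, 7.23, 7.16, 7.13 and 6.66 in control L-GMPs, and 7.27, 6.72 and 6.49 in the knockout leukaemia. Every normal control array lay above every MLL-AF9 array. Ttk read 7.26 to 7.54 in control CMPs, 7.48 to 7.64 in control GMPs, 6.57, 6.88, 6.96 and 7.18 in knockout CMPs, and 5.55 and 6.18 in KSLs. It read 6.06 to 6.47 in MLL-AF9 knockout CMPs, 6.15 to 6.87 in control L-GMPs, and 7.41 in the primary knockout leukaemia against 6.67 and 5.84 in its secondary recipients. On that 1 primary array Ttk lay within the range of the control CMPs, and Racgap1 did not.

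Bub3, Kif20a and Ndc80 had the narrowest ranges. Bub3, a checkpoint protein that also has roles outside mitosis, ranged over only 0.61, from 7.94 and 8.26 in KSLs to 8.57, 8.62, 8.99 and 8.65 in control CMPs. All other groups overlapped with one of these. Kif20a, a kinesin of the central spindle, ranged over 0.88, with 6.18 and 6.77 in KSLs and 7.55, 6.99 and 7.54 in control GMPs. Ndc80, the partner of Nuf2, ranged over 0.91, from 7.30 and 7.58 in KSLs and 7.20, 7.67 and 7.49 in MLL-AF9 knockout CMPs to 8.53, 8.25 and 8.26 in control GMPs. Its 4 control L-GMP arrays, at 7.59, 8.09, 8.08 and 8.13, all lay below the control GMP arrays. The array at 7.59 also lay below the whole normal range of 7.90 to 8.53, and the others lay inside it. For Nuf2 none of the 4 control L-GMP arrays reached a normal array.

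The members rose and fell together. The correlation of a member with the mean of the others over the 23 arrays had a median of 0.89 and was above 0.8 for 41 of 47; the arrays share their groups, so this is a description. It was highest for Foxm1 (0.98), the transcription factor that drives many of these genes. Smc4 (0.03) and Ccnb2 (0.43) stood apart, and were also the only members without a passing F test (limma adjusted p = 0.476 and 0.0645). Smc4, the condensin ATPase subunit, was singled out after its values were seen. On its probe set the 2 KSL arrays read 9.32 and 11.03 and the 3 MLL-AF9 knockout CMP arrays 8.70, 10.41 and 9.56, while the 4 control L-GMP arrays read 10.18 to 10.64 and the 3 control GMP arrays 10.07 to 10.11. The level of its partner subunit Smc2 followed the other members with a correlation of 0.91. Genes outside the list whose pattern was most like the members' mean were Kif15 (r = 0.981), Ncaph (0.963), Brip1 (0.962), Brca1 (0.962), Hmmr (0.949), Hells (0.947), Cip2a (0.940) and Kif14 (0.938), over 23 arrays.

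**Figure D3:**
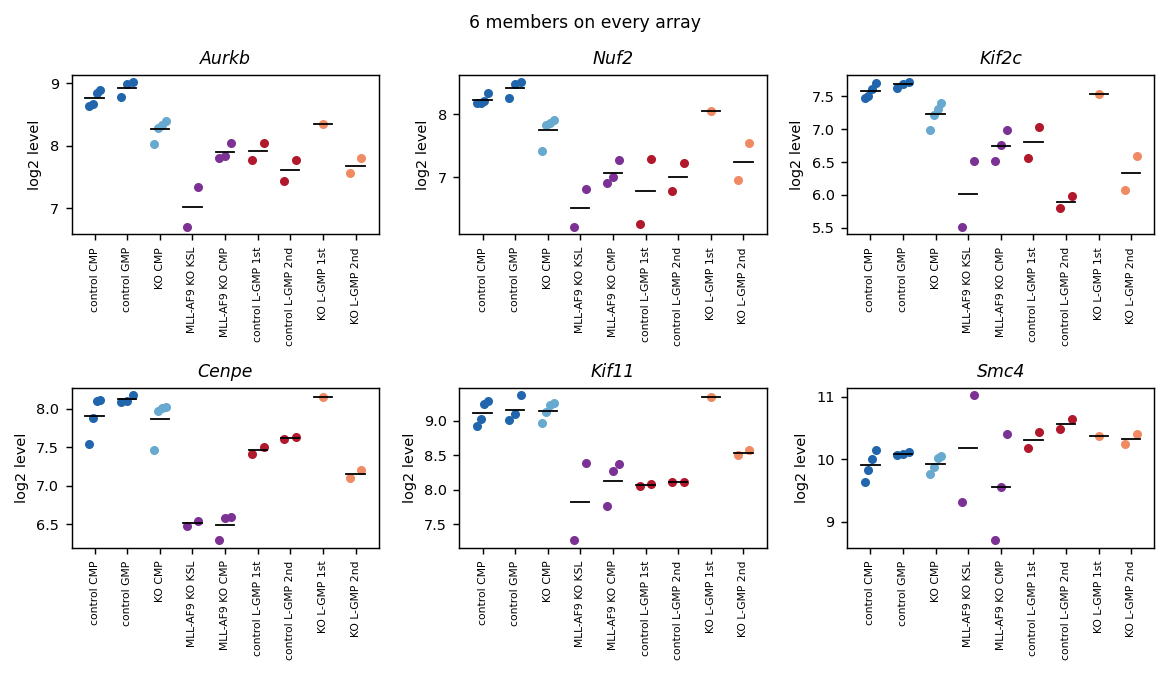
Log2 level of 6 members on every array, by group; points are arrays and bars are group means, and each panel has its own axis. Aurkb, Nuf2 and Kif2c are low in the MLL-AF9 groups other than the primary knockout L-GMP array, Cenpe is lowest in the MLL-AF9 knockout KSLs and CMPs, Kif11 is higher on the 3 knockout L-GMP arrays than on the 4 control L-GMP arrays, and Smc4 follows no such order.

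In CMPs without C/EBPα the members were called about as often as all genes (4.26% against 4.91%). The 2 called were mitotic kinases, both lower. Most other members lay slightly below the controls without passing the test. Aurka, the centrosomal kinase that builds the spindle poles, read 8.01, 8.08, 8.0 and 7.88 in control CMPs and 7.51, 7.66, 7.61 and 7.47 in knockout CMPs. Aurkb read 8.66, 8.84, 8.89 and 8.64 in control and 8.03, 8.28, 8.40 and 8.33 in knockout CMPs. Neither gene overlapped between the genotypes, and these 2 members fell (limma adjusted p = 0.0215 and 0.0433), by 0.43 ± 0.10 and 0.50 ± 0.13 (SE) on the log2 scale. They are 2 of 47, where 4.91% of all genes were called, 2.64% as lower. The median difference of the members was -0.16 against 0.00 for all genes, and 37 of 47 lay below 0. For 15 members all 4 knockout arrays lay below all 4 control arrays, as for 11.3% of all genes. They include 5 of the 7 checkpoint genes, namely Bub1 (-0.29), Bub1b (-0.41), Mad2l1 (-0.30), Ttk (-0.54) and Cdc20 (-0.33), none of which passed the test. The 8 spindle genes had a median of -0.08 and the 7 chromosome genes -0.05.

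Neither call outlasted the removal of every array in turn: between 0 and 1 member was called without any 1 of the 8 arrays. With arrays weighted by their quality 13 members were called lower, and 10 when only these 8 arrays were fitted. Of 71 other mitosis genes 2 were lower (Cenpm, -0.58, and Cenpi, -0.56, both centromere proteins), and their median was also -0.16. Granulocyte-monocyte markers, a list that includes Cebpa, were lower for 8 of 10 genes here (median -3.07), and their part in the result was not tested. Genes of DNA replication had a median of -0.26, with 0 of 40 called by limma and 9 at an unadjusted p below 0.05.

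Control GMPs and control CMPs did not differ detectably in these genes. No member was called by limma, and 0 had an unadjusted p below 0.05, where 1.05% of all genes were called; fitted on these 7 arrays alone, 1 member was. The 2 members nearest to the threshold were Aurka and Foxm1. Aurka read 8.17, 8.31 and 8.19 in GMPs, all above the 4 CMP arrays (as for 5 members and 8.34% of all genes), a difference of 0.23 ± 0.11 (SE; limma adjusted p = 0.67). Foxm1 read 8.14, 7.93 and 7.86 in GMPs and 7.86, 7.70, 7.87 and 7.72 in CMPs, which overlap, a difference of 0.19 ± 0.11 (limma adjusted p = 0.801). The median of the members was 0.10, and 40 of 47 lay above 0.

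Among the comparisons tested, the most members differed between normal and leukaemic GMPs of control genotype. In L-GMPs 40 of the 47 members were lower (limma adjusted p below 0.05) and 0 were higher, where 25.3% of all genes were called, 14.7% as lower. The median difference of the members was -0.78, that of all genes -0.02. For 41 members all 4 L-GMP arrays lay below all 3 GMP arrays, against 17.7% of all genes. Nuf2 read 8.48, 8.26 and 8.51 in GMPs and 7.29, 6.26, 6.78 and 7.23 in L-GMPs. It was 2.88-fold lower, a log2 difference of -1.53 ± 0.22 (SE; limma adjusted p = 0.000363).

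Kif2c read 7.69, 7.72 and 7.63 in GMPs and 7.04, 6.56, 5.99 and 5.80 in L-GMPs, with the 2 secondary arrays lowest (-1.34 ± 0.20; limma adjusted p = 0.000428). Prc1, which bundles the microtubules of the central spindle, read 8.15, 8.15 and 8.03 in GMPs and 6.97, 6.90, 6.75 and 6.88 in L-GMPs (-1.23 ± 0.18; limma adjusted p = 0.000407). Aurkb read 8.99, 9.02 and 8.77 in GMPs and 7.77, 8.05, 7.77 and 7.44 in L-GMPs (-1.17 ± 0.14; limma adjusted p = 0.000123). In none of the 4 genes did any L-GMP array reach a GMP array.

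Every role took part. Among genes of mitotic entry 8 of 9 fell, from Plk1 (-1.15), the polo-like kinase, to Aurka (-0.48), and Ccnb2 (0.15 ± 0.18) was not called. Cdc25c (-0.62) fell with its primary recipients, at 5.32 and 5.91, while its secondary recipients, at 6.76 and 6.83, lay beside the GMPs at 6.73, 6.93 and 6.81. All 4 passenger complex genes fell: Aurkb, Birc5 (-0.96), which codes for survivin, Incenp (-0.73), the scaffold, and Cdca8 (-0.63), which codes for borealin. Of the checkpoint and anaphase genes 6 of 7 fell, with Bub1 at -1.13 and Ttk at -1.01, and Bub3 (-0.27 ± 0.14) was not called. All 6 cytokinesis genes fell, from Prc1 to Kif20a (-0.76).

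Of the 6 kinetochore genes 4 were lower, with a median of -0.46: Nuf2, the kinesin Cenpe (-0.58), Sgo1 (-0.48), the protector of centromeric cohesin, and Cenpa (-0.44), the centromeric histone, fell. Ndc80 (-0.37) and Cenpf (-0.36) were not called. Of the spindle genes 6 of 8 fell, Nusap1 (-1.11) and Kif11 (-1.07) among them, and of the chromosome genes 6 of 7, with Top2a at -1.16. Dlgap5 (-0.25), Spag5 and Smc4 (0.34 ± 0.35) made up the 7 members not called. The drop ran beyond these genes: 54 of 71 other mitosis genes and 27 of 40 replication genes were lower and 0 higher, led among the former by Mastl (-1.65 ± 0.30), the Greatwall kinase, Cenpi (-1.54), Cep55 (-1.53), a midbody protein, and Ncapg2 (-1.48).

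The calls of 34 members held whichever of the 7 arrays was left out, 37 were made with weighted arrays, and 30 with these arrays alone. The 2 groups also differ in transplantation, retroviral infection and culture, which cannot be told apart from leukaemia in this comparison. The GMPs were also taken 5 days after poly I:C, a time not given for the L-GMPs. This too cannot be told apart from leukaemia. Markers of other cells moved beside the members. Mast cell, basophil and eosinophil markers were lower for 3 of 6 genes (median -2.41), averaging 7.95 to 8.87 on control GMP arrays and 6.06 to 6.60 on control L-GMP arrays. Granulocyte-monocyte markers were lower for 4 of 10 (median -0.68), and of 7 lymphocyte markers 4 were higher and 1 lower (median 0.39). No gene of these lists was at the floor on every array of either group, and their part in the result was not tested.

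**Figure D4:**
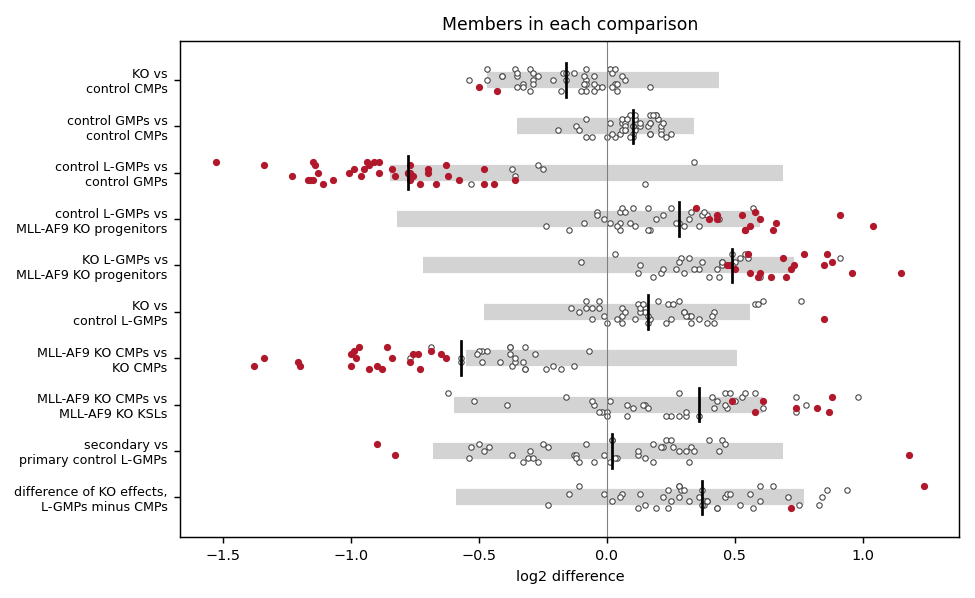
Log2 differences of the 47 members in each of 10 comparisons; filled points were called by limma at an adjusted p below 0.05, open points were not. Black bars are the members' medians and grey bands the range from the 5th to the 95th percentile of all genes. The members lie left of 0 in control L-GMPs against GMPs (median -0.78) and in MLL-AF9 knockout CMPs against knockout CMPs (-0.57).

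Knockout CMPs with MLL-AF9 had lower mitosis genes than those without. The former had also been cultured, transduced and transplanted, and the latter were taken 5 days after poly I:C. These differences cannot be told apart from the fusion gene in this comparison. All 47 members lay below 0 in GFP+ MLL-AF9 knockout CMPs against untransplanted knockout CMPs, with a median of -0.57 against all genes' 5th and 95th percentiles of -0.55 and 0.51. By limma 21 members fell and 0 rose, where 4.88% of all genes were called, 3.36% as lower. For 30 members the 3 MLL-AF9 arrays lay below all 4 knockout arrays, against 9.4% of all genes. Cenpe, the kinesin that carries chromosomes to the spindle equator, read 7.47, 8.01, 7.97 and 8.02 in knockout CMPs and 6.60, 6.58 and 6.29 with MLL-AF9. It was 2.60-fold lower (-1.38 ± 0.14 SE; limma adjusted p = 0.00037).

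Kif20b, a kinesin of cytokinesis, read 8.09, 8.36, 8.32 and 8.25 in knockout CMPs and 7.03, 6.99 and 6.71 with MLL-AF9 (-1.34 ± 0.20; limma adjusted p = 0.00194). Cenpf, a large kinetochore protein, read 7.46, 7.64, 7.92 and 7.72 against 6.98, 6.03 and 6.42 (-1.21 ± 0.19; limma adjusted p = 0.00246). Mki67, the Ki-67 antigen that coats mitotic chromosomes, read 9.52, 9.73, 9.78 and 9.64 against 8.55, 8.69 and 8.18 (-1.20 ± 0.24; limma adjusted p = 0.0115). None of the 4 overlapped.

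Called members were spread unevenly over the roles, though no test compared roles. Spindle genes (5 of 8), chromosome genes (5 of 7) and kinetochore genes (4 of 6) held 14 of the 21 calls. Kif11 (-1.0), Kif4 (-0.97), Spag5 (-0.93), Nusap1 (-0.88) and Dlgap5 (-0.76) fell among the first, and Smc2 (-0.99), Top2a (-0.90) and Ncapg (-0.84) among the second. In mitotic entry only Foxm1 (-0.86) and Nek2 (-0.69) of 9 were called, and of 7 checkpoint genes only Bub1 (-0.98). Other mitosis genes gave 27 of 71 lower, with Stil (-1.34), a centriole protein, and Cep55 (-1.31) leading. Genes of replication gave 6 of 40. With weighted arrays 13 members were called, and the calls of 13 members outlasted the removal of each array. The mouse 4 array with high megakaryocyte markers did not decide the count, since 22 members were called without it. Granulocyte-monocyte markers were lower for 5 of 10 genes (median -1.25), and their part in the result was not tested.

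Within the non-leukaemic MLL-AF9 knockout cells, CMPs were somewhat above KSLs, and the difference hung on 1 KSL array. By limma 7 members were higher in CMPs and 0 lower, where 3.32% of all genes were called, 2.02% as higher; the members' median was 0.36. Cdca8 read 7.07 and 7.62 in KSLs and 8.16, 8.30 and 8.21 in CMPs (0.88 ± 0.17 SE; limma adjusted p = 0.0116). Aurkb read 6.70 and 7.34 against 7.84, 8.04 and 7.80 (0.87 ± 0.17; limma adjusted p = 0.0137). Birc5 read 7.97 and 7.52 against 8.51, 8.67 and 8.27 (0.74 ± 0.14; limma adjusted p = 0.0122). Thus 3 of the 4 passenger complex genes were called. In each of them both KSL arrays lay below all CMP arrays, as for 17 members and 10.9% of all genes.

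Ncapd2, a regulatory subunit of condensin I, read 6.91 and 7.82 in KSLs and 8.18, 8.23 and 8.16 in CMPs (0.82 ± 0.20; limma adjusted p = 0.0348), and Bub1b (0.61), Cdc20 (0.58) and Dlgap5 (0.49) were the other called members. With the mouse as a block, 9 members were called higher and 1 lower, with a median of 0.34. In mouse 9 41 members were higher in CMPs than in KSLs, with a median of 0.53; in mouse 11 28 were, with a median of 0.09. Among all genes 47.3% and 48.9% were. Without the KSL array of mouse 9, 1 member was called and the median fell to 0.06. Without that of mouse 11, 19 were called at a median of 0.51, without the CMP array of mouse 4, 4 were, and with weighted arrays or these 5 arrays alone, 0.

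Against these non-leukaemic MLL-AF9 knockout KSLs and CMPs, control L-GMPs expressed part of the set more highly. Mice 9 and 11 each gave both a KSL and a CMP array to the reference. The fit treated these arrays as independent, so its p-values may be too small. By limma 14 members were higher and 0 lower, where 19.0% of all genes were called, 8.51% as higher. The median was 0.28. Cenpe read 7.42, 7.51, 7.63 and 7.61 in control L-GMPs, and 6.29 to 6.60 on the 5 non-leukaemic arrays (1.04 ± 0.13 SE; limma adjusted p = 3.26e-05). Dlgap5, which stabilises spindle fibres, read 7.60, 7.82, 7.97 and 7.89, against 6.53 and 6.80 in KSLs and 7.04, 7.23 and 7.19 in CMPs (0.91 ± 0.09; limma adjusted p = 3.21e-06). Both genes kept the leukaemic and non-leukaemic arrays apart, as did 5 members in all and 3.3% of all genes.

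Cenpf read 7.15, 7.03, 7.06 and 7.10 in control L-GMPs and 6.03 to 6.98 on the 5 non-leukaemic arrays (0.66 ± 0.17; limma adjusted p = 0.0113). Aurka read 7.82, 8.0, 7.85 and 7.32 against 6.87 and 7.05 in KSLs and 7.22, 7.39 and 7.11 in CMPs (0.65 ± 0.10; limma adjusted p = 0.000261), with the lowest L-GMP array inside the CMP range. Of the 6 kinetochore genes 4 were called. With weighted arrays 3 of the 14 calls remained, those of Aurka, Cenpe and Dlgap5; with these 9 arrays alone 2 members were called. Without primary control L-GMP array 2 there were 9, and without the KSL array of mouse 9, 8 were higher and 2 lower. With CMPs alone as the reference, 8 members were called and the median was -0.02. The 2 sides also differed in cell markers. Granulocyte-monocyte markers, Cebpa among them, were higher for 10 of 10 genes (median 3.43). Mature neutrophil markers were higher for 7 of 8 (median 1.95) and macrophage markers for 3 of 6 (median 0.69). Megakaryocyte markers were lower for 2 of 5 (median -1.54) and erythroid markers for 7 of 8 (median -2.0). Erythroid markers averaged 5.42 to 5.89 on control L-GMP arrays and 6.71 to 8.91 on the non-leukaemic ones. The part of these marker genes in the result was not tested.

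The L-GMPs of the knockout leukaemia were set against the same reference arrays, so the 2 comparisons share them. The fit treated arrays of the same reference mouse, and the 3 arrays of this single leukaemia, as independent. Its p-values may therefore be too small. Whether the non-leukaemic recipients also received the IL-3 and GM-CSF vectors is not stated in the labels, so a part of the vectors cannot be told apart here. Sorted fraction and leukaemia also differ together between these sides, and cannot be told apart either. By limma 18 members were higher and 0 lower, where 13.2% of all genes were called, 7.27% as higher; the members' median was 0.49. Cenpe read 8.15 in the primary and 7.20 and 7.10 in the secondary recipients (1.15 ± 0.14 SE; limma adjusted p = 4.15e-05). Kif11, the bipolar motor that pushes spindle poles apart, read 9.34, 8.58 and 8.50, against 7.27 and 8.39 in KSLs and 7.76, 8.37 and 8.27 in CMPs (0.96 ± 0.20; limma adjusted p = 0.00425). For both, all 3 leukaemic arrays lay above all 5 non-leukaemic ones, as they did for 4 members in all and for 6.61% of all genes.

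Dlgap5 read 8.06, 7.51 and 7.52 (0.88 ± 0.10; limma adjusted p = 1.82e-05), above every non-leukaemic array. Nuf2 read 8.05, 7.54 and 6.95, against 6.21 to 7.27 on the non-leukaemic arrays, which overlap (0.86 ± 0.22; limma adjusted p = 0.0156). Without the primary array only 2 members were called and the median fell to 0.14; without the KSL array of mouse 11, 30 were. With CMPs alone as the reference 8 members were called at a median of 0.30, and 2 with these 8 arrays alone. Cenpe and Dlgap5 were the 2 members called whichever of these arrays was left out. Granulocyte-monocyte markers were higher for 9 of 10 genes (median 3.68) and erythroid markers, which averaged 5.93 to 6.02 on the knockout leukaemia arrays, lower for 6 of 8; their part was not tested. Among the other mitosis genes, Sass6, a centriole protein, and Sgo2a, a shugoshin, led both leukaemias: Sass6 was 1.52 ± 0.14 higher in control and 1.55 ± 0.16 in knockout L-GMPs, and Sgo2a 1.14 and 1.17.

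The primary animal of the knockout leukaemia and its secondary recipients differed across nearly the whole set. The primary array was above both secondary arrays for 46 of 47 members, against 32.5% of all genes. Averaged over the 2 secondary arrays the members had a median difference of -0.79 from the primary, and all genes one of 0.00. Kif23, the kinesin of centralspindlin, read 8.50 in the primary and 7.50 and 6.96 in the secondary recipients. Kif2c read 7.54 against 6.59 and 6.07, and Cdk1 9.03 against 8.03 and 7.87. Only Smc4 (10.38 against 10.40 and 10.25) did not follow, and Bub3 (8.66 against 8.62 and 8.45) differed little. With 1 primary array there is no test of this difference.

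**Figure D5:**
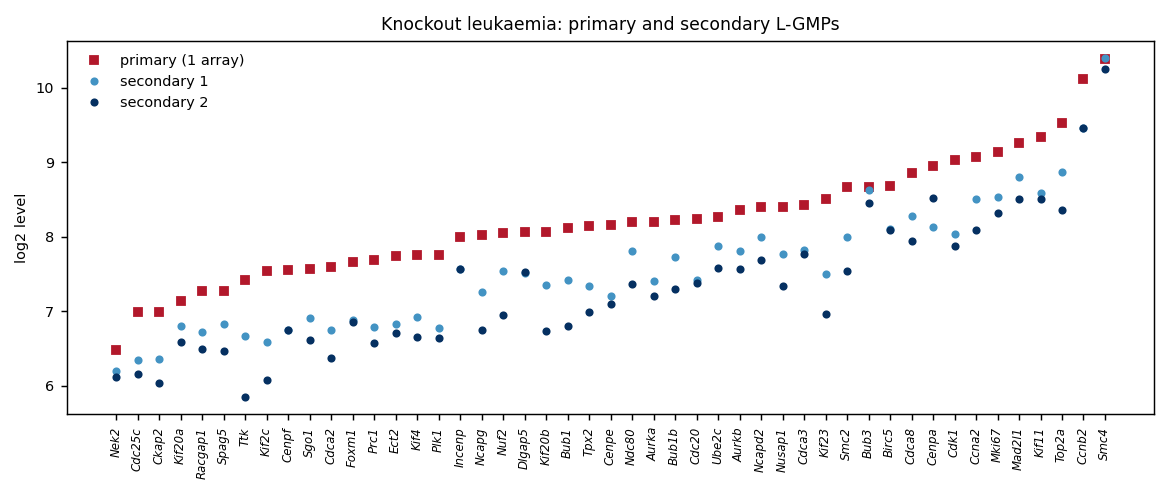
Log2 level of each of the 47 members on the 3 arrays of the knockout leukaemia, ordered by the level on the primary array (squares); circles are the 2 secondary recipients. The square is the highest of the 3 points for every member but Smc4.

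In control L-GMPs no such split was seen: secondary and primary recipients had a median difference of 0.02 over the members, with 1 member higher and 2 lower by limma, where 7.7% of all genes were called (4.04% higher, 3.67% lower). Cdc25c, the phosphatase that activates cyclin-dependent kinase 1, read 5.32 and 5.91 in primary and 6.76 and 6.83 in secondary recipients (1.18 ± 0.17 SE; limma adjusted p = 0.00104). Kif2c read 7.04 and 6.56 against 5.99 and 5.80 (-0.90 ± 0.26; limma adjusted p = 0.0456). Ncapd2 read 8.10 and 8.29 against 7.68 and 7.07 (-0.83 ± 0.22; limma adjusted p = 0.03). The arrays did not overlap in any of these 3 genes, which is common with so few arrays. It held for 9 members as higher and 12 as lower (19.1% and 25.5%), against 18.9% and 22.6% of all genes. Cdc25c alone was called with weighted arrays, without primary array 2 or without secondary array 2, and 0 members were called with these 4 arrays alone.

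Between the 2 genotypes of L-GMP, 1 member was called. Kif11 read 9.34, 8.58 and 8.50 on the knockout arrays and 8.05, 8.09, 8.11 and 8.11 on the control arrays. It was 1.80-fold higher in the knockout leukaemia (0.85 ± 0.21 SE, limma adjusted p = 0.0366). This 1 of 47 compares with 3.27% of all genes called, 2.1% as higher. Its groups did not overlap, which held in this direction for 1 member (2.13%) and for 7.15% of all genes. The members' median was 0.16. Without the primary knockout array, without either knockout secondary array or without either control secondary array 0 members were called, and without primary control array 1, 5 were; without the primary knockout array the median was -0.25. The knockout arrays come from 1 leukaemia that also received the IL-3 and GM-CSF vectors, so genotype, vectors and the single leukaemia cannot be told apart here or in the next comparison.

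The difference between knockout and control was higher in L-GMPs than in CMPs for 2 members. Nuf2 was 0.76 ± 0.23 higher in knockout than in control L-GMPs and 0.47 ± 0.21 lower in knockout than in control CMPs, differences that alone did not pass; the difference between them was 1.24 ± 0.31 (limma adjusted p = 0.0404). Mad2l1, the checkpoint protein that binds Cdc20, read 9.25, 9.05, 9.25 and 9.11 in control and 8.64, 8.81, 9.00 and 9.02 in knockout CMPs. In L-GMPs it read 8.47, 8.58, 8.47 and 8.61 in control and 9.25, 8.80 and 8.50 in knockout cells. The difference between its 2 knockout-control differences was 0.72 ± 0.17 (limma adjusted p = 0.0349), and 2.8% of all genes were called in this contrast. The median over the members was 0.37, and -0.02 without the primary knockout L-GMP array, when 0 were called. There were 5 calls without primary control array 1, 3 without knockout secondary array 2, 2 without control secondary array 1, and 0 or 1 without each of the other L-GMP and CMP arrays.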

How the data were processed

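RNA of sorted mouse marrow progenitors was amplified by a kit for very small inputs before labelling, per the labels' protocols. For 34760 probe sets the authors deposited log2 levels; RMA is the method that the submitters' processing notes name, without a version. It background-corrects, equalises array distributions and summarises probes, so levels compare within a probe set only and changes of dim genes are compressed. The lowest value is a floor of 3, shared by 2952 to 3379 probe sets per array; 0 member values lay on it. The few arrays per group limit the precision.

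The platform annotation gave 21640 probe sets 1 symbol, 1321 several and 11799 none; 21553 matched RefSeq (GRCm38.p6), which changed 0 symbols. Of genes with more than 1 probe set (954), only the brightest on average entered. A model of 9 group means was fitted to all 23 arrays and 19937 genes with limma 3.58.1 in R 4.3.3 (eBayes with trend), with Benjamini-Hochberg adjustment over all genes, a threshold of 0.05 and equal weight per group within a side. On simulated data with these groups, 60 to 89% of 2-fold changes were recovered over the 10 comparisons, and 3.11 to 7.41% of calls were false. The simulated arrays were independent, with the same spread in every group. The real ones were not, so these rates may not hold for groups with a wide spread, such as KSLs. Members and lists were chosen with earlier results of these data known. Arrays are given for up to 4 called members with the largest changes per comparison (or the 2 nearest the threshold), the 6 widest and the 3 narrowest ranges, and the 8 most alike genes outside the list. Up to 4 called genes per comparison were open to naming among the other mitosis genes. Replicate numbers pair samples only where the labels name the same recipient (mice 9 and 11, correlation of deviations 0.409). Alternatives were array weights, the compared arrays alone, median centring, quantile normalization, a floor of 4, a filter at a mean of 5, replicate blocks, leaving out each array and, added after seeing the data, CMPs alone as the reference.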

Additional observations from a re-analysis of the deposited data

Results flagged for a closer look

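Among members in the 2 groups of 4 arrays, 94 checks for a single distant array gave 4, where chance gives about 1 in 20. In knockout CMPs, array 1 was the lowest and apart from the other 3 for Ccna2 (8.86), Ccnb2 (9.04) and Cenpe (7.47). In control CMPs, array 1 was the highest and apart for Cdca2 (7.54), within a range of only 0.13. The effect of the knockout differed between L-GMPs and CMPs by 0.72 for Mad2l1 and by 1.24 for Nuf2 on the log2 scale (limma adjusted p = 0.0349 and 0.0404). In that comparison 0 members passed without the primary knockout L-GMP array.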

How the results depend on the processing

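Of the counts and medians under alternatives, 243 stayed close to the main value and 63 moved. Differences of single genes were checked only for the members picked out for each comparison as described above, not for every called member. Of these checks 369 stayed close to the main result and 83 were weaker. No difference among them changed direction. The members' median changed sign without the primary knockout L-GMP array for L-GMP genotypes (0.16 to -0.25) and for the difference of knockout effects (0.37 to -0.02), with CMPs alone as the reference for control L-GMPs (0.28 to -0.02), and within -0.03 to 0.02 for secondary against primary L-GMPs. With array weights the members called were 13 (knockout against control CMPs), 3 (control L-GMPs against MLL-AF9 knockout progenitors), 13 (MLL-AF9 knockout against knockout CMPs), 0 (MLL-AF9 knockout CMPs against KSLs), 1 (secondary against primary L-GMPs) and 5 (difference of knockout effects). With the compared arrays alone they were 10, 1 (GMPs against CMPs), 2 and 2 (control and knockout L-GMPs against MLL-AF9 progenitors), 0 (knockout against control L-GMPs), 0 (CMPs against KSLs), 0 (secondary against primary) and 5. Median centring gave 1 for knockout CMPs and 1 for the difference of effects; quantile normalization gave 0 for L-GMP genotypes and 1 for that difference. With CMPs alone as the reference, chosen after seeing the data, 8 and 8 members were called, at medians of -0.02 and 0.30. A replicate block gave 1 call for knockout against control CMPs, 0 for GMPs against CMPs and 3 for secondary against primary L-GMPs, whose numbers do not pair samples, and 10 for the mouse pairs. In the unpaired comparisons the correlations of same-numbered arrays lay between -0.205 and 0.117.

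Leaving out each array in turn gave 0 to 1 calls at medians of -0.19 to -0.09 for knockout CMPs, 0 to 0 calls (0.05 to 0.14) for GMPs, 34 to 39 (-0.85 to -0.77) for control L-GMPs against GMPs, 9 to 20 (0.14 to 0.39) for control L-GMPs and 2 to 30 (0.14 to 0.58) for knockout L-GMPs against MLL-AF9 progenitors. It gave 0 to 5 (-0.25 to 0.25) between L-GMP genotypes, 14 to 22 (-0.65 to -0.52) for MLL-AF9 knockout CMPs, 1 to 19 (0.06 to 0.51) against KSLs, 1 to 3 (-0.03 to 0.02) for secondary L-GMPs, and 0 to 5 (-0.02 to 0.42) for the difference of effects. The median SD of the members was 0.33 in KSLs and 0.10 to 0.19 in the other groups with over 1 array, so pooling understates the spread of KSLs.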

Other observations

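Genes that hold cells out of the cycle were also counted. Of 14 CDK inhibitor and quiescence genes, 2 were called higher and 1 lower by limma in control L-GMPs against GMPs, with a median of 0.17, where 10.6% of all genes were called higher and 14.7% lower. In MLL-AF9 knockout CMPs against knockout CMPs, 0 were higher and 1 was lower, with a median of -0.03, where 1.51% of all genes were higher and 3.36% lower. In knockout against control CMPs 4 were higher, with a median of 0.26, where 2.27% of all genes were.

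The other mitosis gene Mybl2, which codes for B-Myb, a partner of the MuvB complex, was lower in knockout than in control L-GMPs (-0.60 ± 0.14 SE; limma adjusted p = 0.0307) and higher in control L-GMPs than in MLL-AF9 knockout progenitors (0.70 ± 0.12; limma adjusted p = 0.00078). In secondary against primary control L-GMPs 6 of 71 other mitosis genes were higher and 3 lower by limma, with a median of 0.05. Among all genes 4.04% were higher and 3.67% lower. The higher ones include the centromere genes Cenpq (2.11 ± 0.37, limma adjusted p = 0.00426) and Cenpw (1.37 ± 0.28, limma adjusted p = 0.00813).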
